A study of Drosophila melanogaster with 4 samples.

Results

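Narrow reproducible regions of H3K79me1 are the enriched regions under 2 kb on the autosomal arms 2L, 3L and 3R that both replicates support. H3K79me1 is histone H3 carrying 1 methyl group on a lysine of its globular core. A region was a member if it stood in the authors' combined list, was narrower than 2000 bp, and shared at least 1 bp with a region of each replicate list. There were 90 members, 24 on 2L, 35 on 3L and 31 on 3R, of 12942 enriched regions in the combined list. The members were chosen by measured values, their width and their overlap with regions called in both replicates. Widths, overlaps and scores come from the same calls and are given as descriptions, with no test. Regions of 1 list are not replicates of a condition, so the comparisons below carry counting intervals and no p-value.

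The chromatin came from heads of adult Drosophila melanogaster of the wild-type strain Oregon-R, labelled as a mixed adult stage and collected with sieves. There were 2 ChIP libraries, made with a single antibody lot, and 2 input libraries of genomic DNA, with no treatment and no mutant group. Heads hold neurons, glia, photoreceptors, fat body and other cells. A region marked in few cells and one weakly marked in many cannot be told apart in such bulk chromatin. Whether the replicates were separate collections of flies is not stated in the labels, and differences between them may be technical. Read depth is unknown from these lists.

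Methylation of this lysine is carried out by enzymes of the Dot1 family, which lack the SET domain of most histone lysine methyltransferases and place up to 3 methyl groups on the same residue. The fly member is the product of grappa. The mark is generally found over the bodies of transcribed genes, where it often forms domains that follow the length of the gene. The question here is whether short regions stood alone or beside longer domains.

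Few narrow regions were found in both replicates. On 2L, 3L and 3R the combined list held 4013 regions under 2 kb, of which 90 (2.24%) overlapped both replicate lists, 1172 overlapped 1 list and 2751 overlapped neither. On the same arms 1500 regions of 2 to 5 kb and 1231 of at least 5 kb were in both replicate lists. The members thus made up 90 of 2821 reproducible regions and 167 kb, or 0.607% of the enriched length of these arms. They were 1.91% of the narrow regions on 2L, 2.75% on 3L and 2.09% on 3R.

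Most members lay close under the width limit. The widths ran from 1241 to 1999 bp with a median of 1904 bp, and 70 of 90 were at least 1750 bp wide. Of the regions from 1000 to 1249 bp, 1 of 1447 (0.0691%) was in both replicate lists. The share was 0.211% from 1250 to 1499 bp, 2.15% from 1500 to 1749 bp, and 8.50% from 1750 to 1999 bp (95% Wilson interval 6.78 to 10.6). It went on to 28.3% in the next class, from 2000 to 2249 bp, and to 44.9% from 2750 to 2999 bp. The narrowest region of either replicate list was 1301 bp wide, so a narrower combined region could be met only by a wider replicate region. The 5 members nearest the limit were 1997, 1997, 1999, 1999 and 1999 bp wide. The 5 reproducible regions just above it were 2001 to 2005 bp wide.

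**Figure D1:**
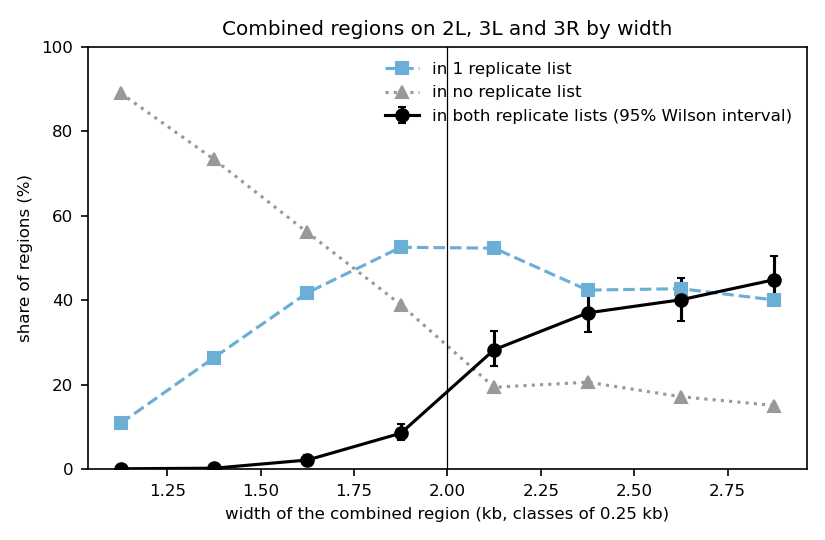
Share of combined-list regions on 2L, 3L and 3R (y axis, percent) that were in both, 1 or no replicate list, by width of the region (x axis, kb, classes of 0.25 kb). Bars on the black points are 95% Wilson intervals, and the vertical line marks the 2 kb limit. The share in both lists goes from 8.50% just below the limit to 28.3% just above it.

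Narrow regions that the replicates shared with each other usually met, by at least 1 bp, a region of 2 kb or more in the combined list. Replicate 1 had 1227 regions under 2 kb on these arms that shared a base with a replicate 2 region. In the combined list 622 of them (50.7%) met a region of 2 to 5 kb and 526 (42.9%) one of at least 5 kb, and 84 (6.85%) met a member, alone or beside a wider region. Replicate 2 had 1116 such regions, of which 553 (49.6%) met a region of 2 to 5 kb, 480 (43.0%) one of at least 5 kb and 86 (7.71%) a member. The combined region was 2.74 times as wide as the replicate 1 region at the median, and 2.70 times as wide as the replicate 2 region. All of these replicate regions had a base in the combined list.

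At the members themselves most of the sequence was marked in both replicates. Replicate 1 covered 77.8% of the members' length and replicate 2 covered 83.1% (mean 80.5% ± 3.70, SD, n = 2). Both replicates together left 6.81% uncovered, and 67.7% lay inside all 3 lists. The replicate regions were shorter than the members, with medians of 1538 bp and 1597 bp. At 47 of 90 members both replicate regions lay wholly inside the combined region. The median distance between the centres of the replicate regions was 150 bp. The regions at a member were of similar size, the narrower being 89.6% of the wider at the median. At 79 of 90 members every replicate region was itself under 2 kb. These values are partly fixed by the rule and the calls. No replicate region was narrower than 1301 bp and no member reached 2000 bp. A replicate region inside a member therefore had to cover most of it. Replicate regions that both lay inside a member had to be similar in size, with close centres. The values describe the members and do not measure agreement between replicates.

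**Figure D2:**
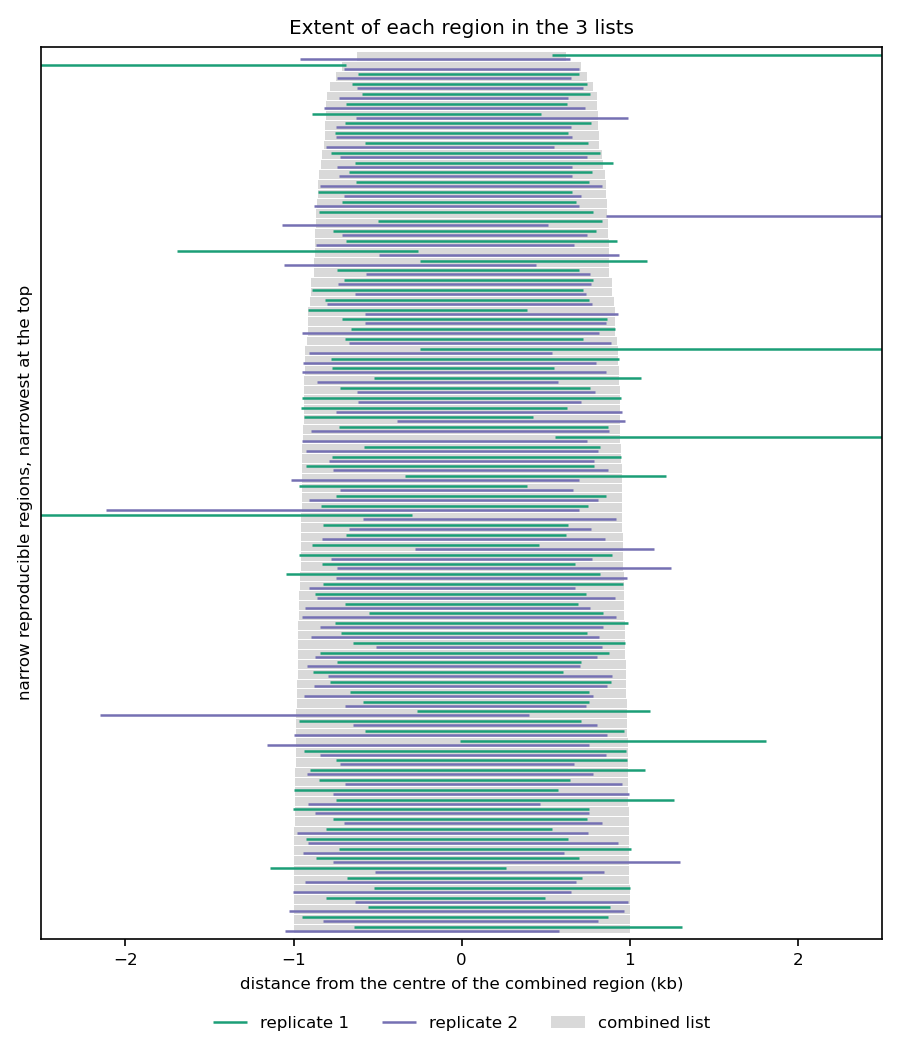
Extent of the 90 members in the combined list (grey) and of the region that covers most of each in replicate 1 (green) and replicate 2 (purple), as distance from the member's centre (x axis, kb), 1 row per member, narrowest at the top. Most green and purple lines sit on the grey bar. At 6 members a replicate region runs past the 2.5 kb drawn on either side.

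No member lay wholly inside a replicate region of 2 kb or more (0 of 90, for which a count of 0 allows a share of up to 3.33%), but 11 touched one. In 6 cases that region was in replicate 1 and in 5 in replicate 2, and at no member in both. At 13 members a replicate region also reached another combined region. The clearest case was on 3L from 20134130 to 20135550. Replicate 1 had there the end of a region of 11764 bp, from 20122387 to 20134150, which covered 1.48% of the member. Replicate 2 had a separate region from 20134143 to 20135536, which covered 98.1%. On 3R from 19598682 to 19599922, the narrowest member, a replicate 1 region of 4672 bp covered 6.85% and a replicate 2 region of 1609 bp covered it all. Both of these members lay beside a wide combined region, at 209 bp and 23 bp.

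At 1 member the replicates shared no base with each other inside it. It lay on 3L from 21560504 to 21562232. Replicate 1 covered 94.2% of it, and replicate 2 covered 0.347%, with a region of 4622 bp that began at 21562227. On 3R from 22931024 to 22932910 replicate 1 covered 20.5%, with a region of 3749 bp, and replicate 2 covered 89.6%. On 3R from 14832318 to 14834178 the replicate 1 region was 3853 bp wide and covered 63.4%, and replicate 2 covered 77.8%. These 5 members had the widest replicate regions. In all, 84 of 90 were covered to at least 50% by each replicate.

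The members' scores were low within every list. The score is the authors' own, has no stated unit, and is treated as a log2 value. It is compared within a list and not between lists. The members' scores in the combined list ran from 0.16 to 0.47 with a median of 0.37, and 87 of 90 were below that list's median of 0.46. The upper quartile of all 4013 narrow regions, 0.44, was also below 0.46, so such low scores were not particular to members. The members' median stood at the 16.7th percentile of the combined list. Their replicate regions stood at the 9.69th percentile of replicate 1 and the 6.93rd percentile of replicate 2. In replicate 1, 80 of 90 were below their list's median, and in replicate 2, 84 of 90. Each replicate list also holds wider regions, and these shares are not given for its other narrow regions. Low replicate scores therefore cannot be called particular to members. In the combined list reproducible regions of 2 to 5 kb had a median of 0.52 and those of at least 5 kb a median of 0.60.

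The members' median score was not above that of the other narrow regions. It was 0.39 for narrow regions in 1 replicate list and 0.41 for those in neither. These classes also differed in width, with medians of 1904 bp for members, 1639 bp in 1 list and 1271 bp in neither. From 1750 to 1999 bp the medians were 0.38 for the 70 members, 0.39 for 433 regions in 1 list and 0.40 for 321 in neither. From 1500 to 1749 bp they were 0.31 for 17 members, against 0.37 and 0.38. The upper and lower quartiles overlapped in the wider class, at 0.35 to 0.41 for members and 0.37 to 0.43 for regions in neither list. In the narrower class the members' upper quartile, 0.33, was below the lower quartile of regions in neither list, 0.34. Against regions in 1 list the quartile ranges just overlapped, with 0.3254 for the members' upper quartile and 0.3248 for the lower quartile of those regions. The members' quartiles in this class rest on 17 regions.

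**Figure D3:**
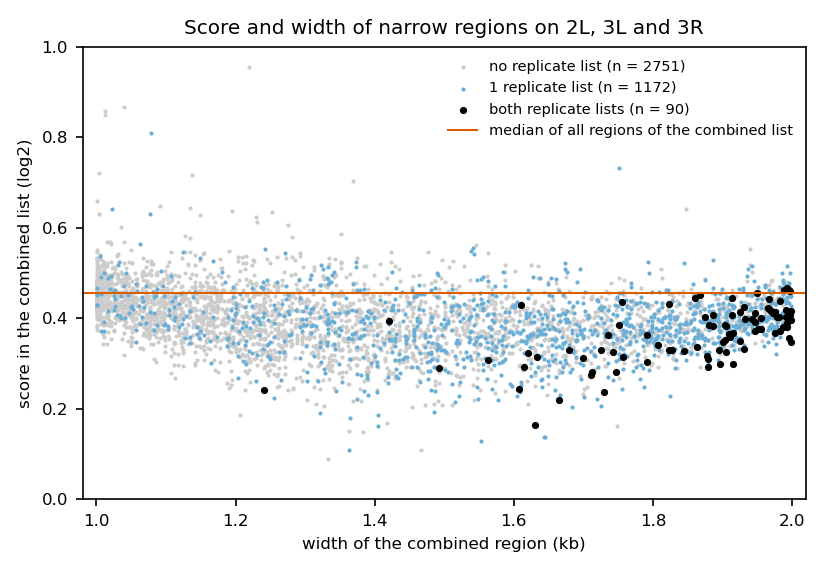
Score in the combined list (y axis, log2) against width (x axis, kb) of the narrow regions on 2L, 3L and 3R, coloured by the number of replicate lists they were in. The orange line is the median of the whole combined list, 0.46, and 87 of the 90 black points lie below it. The upper quartile of all narrow regions, 0.44, is also below it. The plot leaves out 10 narrow regions that scored above 1, none of them a member.

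The 5 highest-scoring members had scores between 0.45 and 0.47. They lay on 3R from 9354908 to 9356900 and from 14710822 to 14712818, and on 3L from 18320198 to 18322186, from 8031494 to 8033442 and from 22854916 to 22856782. All 5 were 1867 bp wide or more and all had another region within 3 kb. The first, on 3R, lay 217 bp from a region of 2327 bp and 461 bp from one of 3961 bp. The last, on 3L, lay 83 bp from a region of 8953 bp. The lowest score, 0.16, belonged to 2L from 3029158 to 3030788, which both replicates covered to at least 84.7%. Its nearest neighbour, 213 bp away, was 5755 bp wide and scored 0.79.

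Most members had close neighbours, and a minority of these were wide. A member was called next to a wide region if a combined region of at least 5 kb lay within 5 kb of its edge. It was called isolated if no other combined region of any width lay within 5 kb. By these rules 29 of 90 members (32.2%, 95% Wilson interval 23.5 to 42.4) were next to a wide region. Another 52 (57.8%, 47.5 to 67.5) had a narrower neighbour within 5 kb and no wide one, and 9 (10.0%, 5.35 to 17.9) were isolated. Among all 4013 narrow regions of these arms 22.2% were next to a wide region and 10.7% were isolated. The first of these values lies just below the members' interval and the second inside theirs. From 1750 to 1999 bp, 11.4% of members (5.91 to 21.0) were isolated, against 6.24% of regions in 1 list and 7.17% (4.82 to 10.5) of those in neither. From 1500 to 1749 bp the order was the other way, with 5.88% of 17 members (1.05 to 27.0) against 7.85% and 8.78%. The split moved with its limits. With gaps of 2000 and 10000 bp, 18.9% and 43.3% of members were next to a wide region and 27.8% and 3.33% were isolated. With wide regions taken from 10 kb or from 2 kb, 10.0% and 76.7% were next to one.

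**Figure D4:**
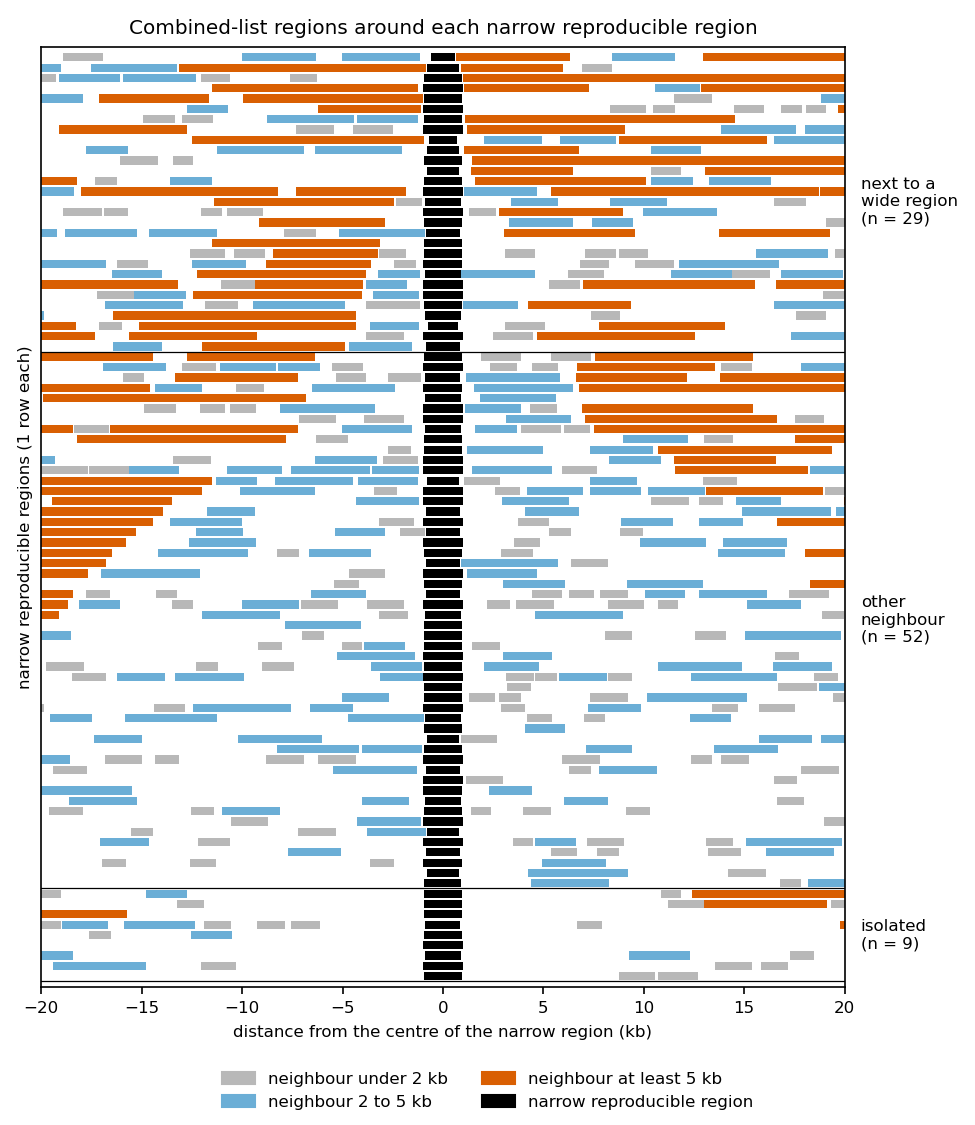
Combined-list regions within 20 kb (x axis, distance from the centre, kb) of each of the 90 members, 1 row per member. Members are black, and neighbours are grey under 2 kb, blue from 2 to 5 kb and orange from 5 kb. Rows are grouped into the 29 members next to a wide region, the 52 with another neighbour and the 9 isolated ones, and ordered within a group by the gap to the nearest wide region.

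Neighbours were often very close. The gap to the nearest combined region was 593 bp at the median, and 58 of 90 members (64.4%, 54.2 to 73.6) had a region within 1 kb. The same share was 55.7% for narrow regions in 1 replicate list and 48.6% for those in neither (46.8 to 50.5). At matched width the order of the median gaps differed between classes. From 1750 to 1999 bp the median gap was 803 bp for members. It was 729 bp for regions in 1 list and 757 bp for those in neither. From 1500 to 1749 bp it was 249 bp for 17 members, against 935 bp and 824 bp. Members had neighbours within 5 kb on both sides in 46 cases (51.1%) and on 1 side in 35 (38.9%). Among all narrow regions these shares were much the same, at 51.4% and 38.0%. The nearest neighbour was under 2 kb wide in 36 cases, from 2 to 5 kb in 37 and at least 5 kb in 17. It scored higher than the member in 67 of 90 cases and was itself in both replicate lists in 42, in 1 list in 24 and in neither in 24. In 2 cases it was another member. These counts are given for members only. All narrow regions had a median score of 0.40, below the 0.46 of the combined list. A higher-scoring neighbour therefore cannot be called particular to members. The nearest neighbour's median width was 2481 bp for members, 2471 bp for reproducible regions of 2 to 5 kb and 1927 bp for all narrow regions.

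The gap to the nearest wide region was 12.3 kb at the median for members and 11.4 kb for reproducible regions of 2 to 5 kb. For narrow regions in 1 list the median was 16.4 kb, and for those in neither 19.2 kb. The share next to a wide region was 32.3% (30.0 to 34.7) for reproducible regions of 2 to 5 kb, 25.7% (23.3 to 28.3) for narrow regions in 1 list and 20.4% (18.9 to 21.9) for those in neither. From 1750 to 1999 bp alone the shares were 30.0% (20.5 to 41.5) for members, 26.6% for regions in 1 list and 23.1% (18.8 to 28.0) for those in neither, and these intervals overlap. The flanks of 25 kb on each side were covered to 39.9% at the median around members, against 39.1% and 37.2% around the other narrow classes and 41.2% around reproducible regions of 2 to 5 kb. From 1750 to 1999 bp this order was not kept, with 38.9% around members, 40.9% around regions in 1 list and 40.4% around those in neither.

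**Figure D5:**
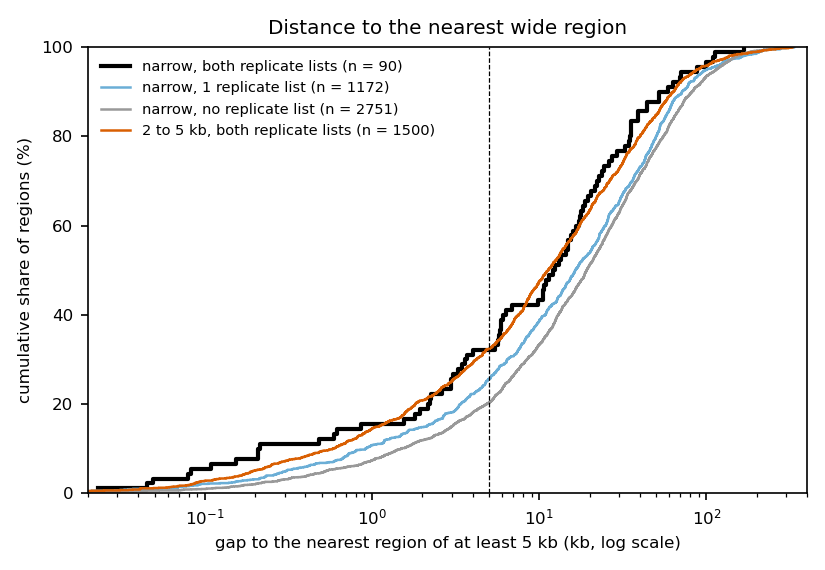
Cumulative share of regions (y axis, percent) against the gap to the nearest combined region of at least 5 kb (x axis, kb, log scale) for members, the other narrow classes and reproducible regions of 2 to 5 kb. The dashed line marks the 5 kb limit, where the curves stand at 32.2%, 25.7%, 20.4% and 32.3%.

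The 29 members beside wide regions lay along 28 of the 1277 wide regions on these arms. These were 5101 to 32059 bp wide with a median of 7490 bp, 7 were at least 10 kb wide, and 27 of 28 were in both replicate lists. Of all 1277 wide regions on these arms 1231 were in both lists, so this was usual for a wide region. The gap between member and wide region was at most 1000 bp in 14 cases and under 100 bp in 5, and in 18 cases no other region lay between. Within 1 kb of a wide region were thus 15.6% of members (9.50 to 24.4) and 8.57% of all narrow regions. The share was 10.8% for narrow regions in 1 list and 14.5% for reproducible regions of 2 to 5 kb. Members lay on the lower-coordinate side of the wide region 13 times and on the higher-coordinate side 16 times. All 29 scored below the wide region beside them, by a median difference of -0.23 in log2, with differences from -0.71 to -0.01. This order was largely set by the classes compared. No member scored above 0.47, and reproducible regions of at least 5 kb had a lower quartile of 0.53. It is given for members only and not for other narrow regions beside wide ones.

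The members closest to regions of at least 10 kb lay on 3L and 3R. On 3L from 19963188 to 19964802 a member stood between a region of 12297 bp, 45 bp away, and one of 5061 bp, 109 bp away. On 3L from 11289728 to 11291604 it lay 49 bp before the widest such region, of 32059 bp, which ran from 11291654 to 11323712. In both replicates the region at that member ended before it, running from 11289941 to 11291431 and from 11290045 to 11291457. On 3R from 913774 to 915674 a member lay 483 bp before a region of 22633 bp. The next on 3R, from 6440592 to 6442538, lay 5.82 kb from a region of this width. On 2L the nearest were farther, at 11.5 kb (7459428 to 7461308) and 12.2 kb (1412726 to 1414704).

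The 5 narrowest members were 1241 to 1607 bp wide, and 4 of them were next to a wide region. Besides the members on 3R and 3L at 23 bp and 209 bp described above, they lay on 3L from 3940892 to 3942384, 3.58 kb from a wide region, and on 3R from 3825500 to 3827062, 595 bp from one. The fifth, on 2L from 15008284 to 15009890, was 35.3 kb from a wide region but 113 bp from a region of 1799 bp.

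The 9 isolated members were 3 on each arm. They scored 0.29 to 0.40, and they were covered to 67.6% or more by replicate 1 and to 70.5% or more by replicate 2. The most isolated lay on 2L from 12095974 to 12097972, with nothing for 31.3 kb on one side and 37.1 kb on the other. In the replicate lists its nearest neighbours were 31.1 kb and 32.9 kb away. Its flanks of 25 kb were covered to 0%, and the replicates covered it to 72.1% and 98.3%. Its score was 0.35, at the 1.34th percentile of replicate 1 and the 6.05th percentile of replicate 2.

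The second on 2L, from 7498108 to 7500012, had its nearest neighbour 14.8 kb away, a region of 10555 bp. A further isolated member, from 7459428 to 7461308, lay on the other side of that same region, 11.5 kb from it. On 3L the most isolated ran from 851196 to 853120, with gaps of 9.56 and 29.6 kb, and from 12855766 to 12857756, with gaps of 9.30 and 12.5 kb. On 3R from 14228770 to 14230656 the gaps were 10961 and 10243 bp, and from 24422680 to 24424558 they were 52.1 and 7.84 kb. Replicate 1 covered this last member entirely with a region of 1899 bp, and replicate 2 covered 70.5% of it.

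The replicate lists gave fewer members next to wide regions and more isolated ones. A replicate region that overlapped the member was not counted as its neighbour, even where it was wide. With neighbours taken from the replicate lists, 8 members (8.89%) were next to a wide region in replicate 1 and 9 (10.0%) in replicate 2 (mean 9.44% ± 0.786, SD, n = 2). Isolated were 24 (26.7%) and 27 (30.0%), with a mean of 28.3% ± 2.36 (SD, n = 2). These lists held 539 and 595 wide regions on the 3 arms, against 1277 in the combined list. Among all narrow regions of the combined list, 5.36% and 5.96% were next to a wide replicate region, and 47.3% and 40.9% were isolated from replicate regions. Every member overlapped a region of each replicate list, while 2751 narrow regions overlapped none, so these shares are not fully alike. In all 3 lists 4 members were next to a wide region and 8 were isolated, counts that are given for members only. The isolated member missing from the 8 was on 3R from 14228770 to 14230656, where replicate 2 had a region 1.83 kb away.

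More than 50 kb from any wide region lay 11 members (12.2%, 6.96 to 20.6), against 21.6% of all narrow regions. For reproducible regions of 2 to 5 kb the share was 15.3%, inside the members' interval, and no share at matched width is given. All 11 had another combined region within 5 kb, as did 81 of the 90 members in all. The farthest, on 2L from 22426318 to 22428162, was 168 kb from a wide region and 3.46 kb from one of 3877 bp. On 3L from 6088120 to 6089752 the wide region was 70.5 kb away and a region of 2933 bp lay at 33 bp.

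Members were few, at 1.04 to 1.43 per Mb of arm, so wide spacing goes with their number. They seldom neighboured each other. Consecutive members on an arm were 517 kb apart at the median, and 2 of 87 such gaps were within 5 kb. Both belonged to 1 run on 2L from 18949230 to 18957558, where 3 members of 1913, 1993 and 1993 bp stood 933 and 1497 bp apart. The last of them lay 209 bp before a region of 7845 bp. On the other side, 5.43 kb before the first, was a region of 6363 bp. The replicates had a separate region at each of the 3, covering 68.4% to 88.6%. On 3L and 3R no members lay within 5 kb of each other.

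Along the arms, members were found in each of 10 equal bins counted from the telomere. The bins held between 5 and 14 members over the 3 arms together. As a share of narrow regions the values ran from 1.29% in the sixth bin to 4.09% (2.30 to 7.17) in the bin next to the centromere, where 11 of 269 were members. In the bin next to the telomere 5 of 360 (1.39%, 0.595 to 3.21) were members, so these intervals overlap. By arm, 29.2% of members on 2L, 31.4% on 3L and 35.5% on 3R were next to a wide region. Over all narrow regions of these arms the shares were 18.7%, 23.9% and 23.6%. The members' intervals, 14.9 to 49.2, 18.6 to 48.0 and 21.1 to 53.1, each hold the value of their own arm and overlap one another.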

How the data were processed

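H3K79me1 ChIP-seq was represented by 3 region lists, 1 for each ChIP library and 1 combined. The submitters' processing notes name Bowtie 0.12.7. Coordinates are 1-based on FlyBase release 5, per the file headers. Not given in the sources used here are the region caller, its thresholds and how the combined list was made. The score deposited by the authors with each region was treated as log2: 2 raised to score differences gave ratios of whole numbers (denominators up to 5000, relative tolerance 1e-11) for 96.9% to 99.9% of regions of a list, against at most 1.18% on other log scales. Depth is unknown. The 1 region named as depleted was left out. Combined starts and ends were all even numbers.

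Gaps were counted between edges with Python 3.11.15, numpy 2.4.6 and pandas 2.3.3, and Wilson intervals with scipy 1.17.1. Intervals and floors (3 counts) treat regions as independent and cover counting error only. Functions were tested on simulated lists with planted overlaps and gaps.

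Members, groups and rules were chosen with earlier results of these data known. Regions were named by rule: the 5 highest scores, the 5 narrowest, the 5 with the widest replicate regions, per arm the 2 most isolated, the 2 nearest a region of at least 10 kb and the longest run of members. Regions named otherwise (the lowest score, those far from wide regions) were chosen after their values were seen. Alternatives covered the overlap, score and width limits, gap, neighbour list, merging and each replicate alone. Gene models and genome sequence of this release were not used here, so no gene or sequence is given.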

Additional observations from a re-analysis of the deposited data

How the results depend on the processing

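A requirement of 50% coverage by each replicate gave 84 members, 32.1% of them next to a wide region and 10.7% isolated, and 100% with a base in all 3 lists against 98.9%. Requiring a base in all 3 lists, an alternative chosen after seeing the data, gave 89 members. The higher-scoring 50% of combined regions left 3 members, 0% next to a wide region, 0% isolated, 100% in all 3 lists and a median score of 0.46. A limit of 1500 bp left 3 members, 100% next to a wide region, 0% isolated, 100% in all 3 lists and a median score of 0.29. These shares rest on 3 regions. With 1 replicate required in place of both, members numbered 583 to 769, with 25.7% to 27.6% next to a wide region, 8.06% to 8.75% isolated, 11.6% to 15.3% in all 3 lists, 1.37% to 3.12% inside a wider replicate region and median scores of 0.38 to 0.39. Gap limits of 2000 and 10000 bp gave 18.9% and 43.3% next to a wide region and 27.8% and 3.33% isolated. Neighbours from the replicate 1 and replicate 2 lists gave 8.89% and 10.0% next to a wide region, 26.7% and 30.0% isolated. Calling regions wide from 10000 or 2000 bp gave 10.0% and 76.7%. Merging combined regions within 1000 bp left 32 members. The share inside a wider replicate region was 0% with 50% coverage, the higher-scoring 50% of regions, the 1500 bp limit and a wider region taken from 5000 bp. Larger gaps and lower widths for a wide region can only raise the share next to one, by construction. Other changes have no tested cause. No paired analysis was possible because no result comes from a test and the input libraries are without region lists here. Unknown depth limits every comparison between lists.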
